A study of Mus musculus with 12 samples.

Results

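Axon guidance molecules are secreted or membrane-bound ligands and the receptors that read them: ephrins and their Eph receptor tyrosine kinases, semaphorins and the plexins and neuropilins, Slits and Robo receptors, and netrins with DCC and the UNC5 receptors. They steer growing axons in the developing nervous system, and several of them also shape blood vessels, epithelia and synapses in the adult. In the adrenal gland, the cells that could carry such genes include the chromaffin cells of the medulla, which derive from the neural crest, the nerve fibres and glia of the gland, the steroid-producing cortex and a dense bed of vessels.

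The genes described here were those whose symbol, as the single gene listed for a probe set of the array, belongs to these families. The search found 69 genes of 16244 with a single-gene probe set, 35 ligands and 34 receptors, and each gene was read at its probe set with the highest mean signal. All but Sema3d (group means under 6 on the log2 scale) were tested, which left 68 of 15900 genes tested in all. Unc50, which acts in the trafficking of nicotinic acetylcholine receptors, and Unc5cl, a cytoplasmic relative of the UNC5 receptors, match the symbols without being netrin receptors. They were kept, counted among the 34 receptors, so that the search stayed by name alone. Without them 17 of 66 tested genes were higher and 8 lower in ASP against CON, the same calls as with them.

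Adrenal glands of male C57Bl/6J mice aged 21 weeks were profiled on 12 Mouse Gene 1.0 ST arrays. ASP mice received aspartame in the drinking water at 46 mg/kg, with exposure from before birth through the mother. CGP mice were exposed to CGP 39551, a competitive antagonist of the NMDA class of glutamate receptor, from conception until postnatal day 28. It was given to the dams in their drinking water, at 5 mg/kg of the body weight of the dams. ASP+CGP mice received both agents, and CON mice received neither. All RNA of a group was pooled before hybridisation and the pool was applied to 3 arrays, so the p-values speak only of repeat hybridisations and hold no spread between mice. Values are log2 signals after robust multi-array averaging (RMA), and a gene was called when its Benjamini-Hochberg adjusted p in limma was under 0.05 over all genes tested and its fold was at least 1.4.

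Array medians lay between 7.84 and 7.94. The interquartile range of an array was 2.52 to 2.61 in ASP, 2.59 to 2.69 in CGP, 2.2 to 2.29 in ASP+CGP and 2.58 to 2.62 in CON, so the ASP+CGP arrays had a narrower range of signal than the others. Adrenal identity was present in all pools: the mean signal of 10 cortex markers was 12.58 to 12.63 in ASP, 12.79 to 12.84 in CGP, 12.72 to 12.76 in ASP+CGP and 12.87 to 12.88 in CON. Markers of central nervous tissue set the ASP pool apart, and their values stand beside the guidance genes below. In tissue arrays, fewer cells of a type and less RNA per cell cannot be told apart.

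In ASP adrenals 17 guidance genes were higher and 8 lower than in CON adrenals. The background was 9.81% of all genes tested called higher and 8.13% called lower in the same comparison, against 25% and 11.8% of the guidance genes. The median difference of the guidance genes was 0.11 on the log2 scale, beside -0.1 over all genes tested. Of the genes that were higher, 12 were ephrins, Eph receptors or membrane-bound semaphorins. Those that were lower included the endothelial receptors Robo4, Ephb4 and Plxnd1. ASP and CON arrays did not overlap for any of these 25 genes, nor for 55 of the 68 tested, beside 63.6% of all genes tested.

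**Figure D1:**
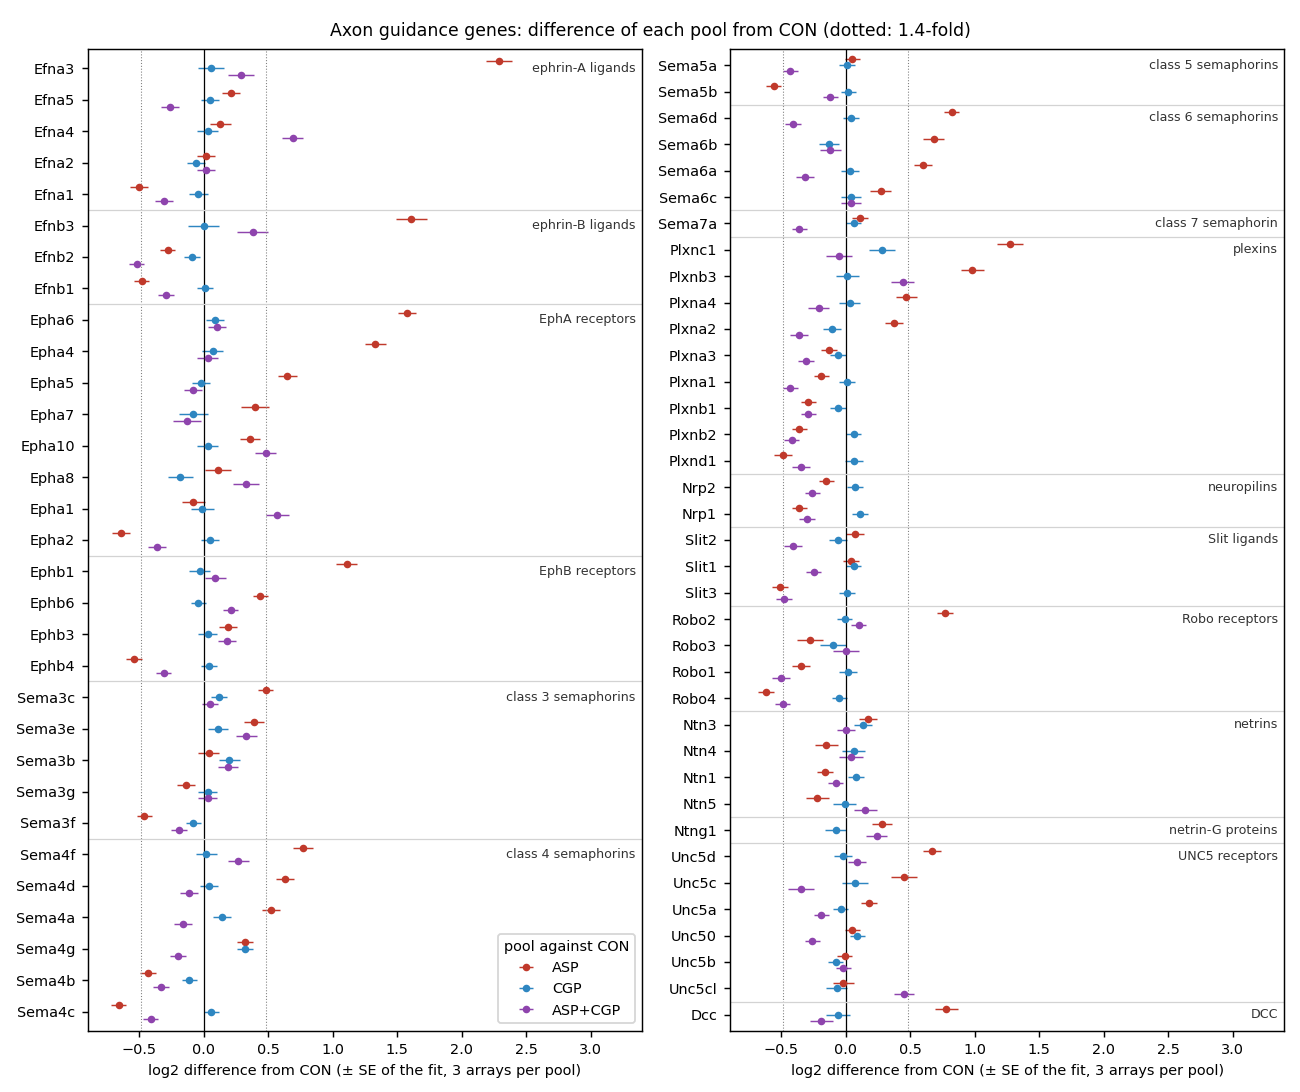
Log2 difference from CON (x axis) of each tested guidance gene in ASP (red), CGP (blue) and ASP+CGP (purple), with the standard error of the fit as a bar and dotted lines at 1.4-fold, grouped by family. Efna3, Efnb3, Epha6, Epha4, Plxnc1 and Ephb1 lie furthest to the right in ASP, with log2 differences between 1.11 and 2.29, while CGP values stay between -0.18 and 0.32.

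Among the ephrin-A ligands, which are anchored to the membrane by a lipid tail, Efna3 had the largest difference of any guidance gene. Its signal was 8.27, 8.49 and 8.63 on the ASP arrays, against 6.29, 6.2 and 6.03 on the CON arrays. Every ASP array was far above every CON array, and the difference was 2.29 ± 0.1 (SE), a fold of 4.9 (limma adjusted p = 6.74e-11). Efna1, a ligand of Epha2, went the other way, with 7.77, 7.79 and 7.7 in ASP against 8.18, 8.22 and 8.36 in CON, a log2 difference of -0.5 ± 0.07 (adjusted p = 2.05e-05). Efna2, Efna4 and Efna5 differed by 0.02, 0.13 and 0.21 and were not called.

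Efnb3, a transmembrane ephrin that halts axons at the midline of the spinal cord, was the ephrin-B ligand that rose. It measured 8.88, 8.3 and 8.44 in ASP and 7.1, 6.86 and 6.85 in CON. The lowest ASP array was clear of the highest CON array, and the difference was 1.61 ± 0.12 or 3.05-fold (limma adjusted p = 2.46e-08). Efnb1 and Efnb2 had log2 differences of -0.48 and -0.28, neither reaching 1.4-fold.

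The EphA receptors, which bind mainly the ephrin-A ligands, held 3 genes called higher and 1 called lower. Epha4, which binds both classes of ephrin, was 7.91, 8.02 and 8.06 in ASP against 6.51, 6.84 and 6.66 in CON, a difference of 1.33 ± 0.08 or 2.51-fold (limma adjusted p = 2.09e-09). Epha6, a receptor known mainly from brain, was dim outside ASP, and its arrays read 6.7, 6.78 and 6.53 in ASP, against 5.13, 5.11 and 5.02 in CON. Because the CON mean was under the floor of 6, the fold is given as at least 1.59 (log2 difference 1.58, limma adjusted p = 6.65e-11). Epha5 also rose, by 0.65. Epha2, an epithelial receptor and the partner of Efna1, fell with it: 7.91, 8.16 and 7.99 in ASP against 8.61, 8.64 and 8.74 in CON, a log2 difference of -0.64 ± 0.07 (adjusted p = 2.82e-06). The groups did not overlap for any of these receptors.

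Of the 4 EphB receptors, Ephb1, which guides retinal axons that stay on their own side of the brain, was the only one called higher. It measured 7.39, 7.5 and 7.57 in ASP and 6.4, 6.44 and 6.28 in CON, a difference of 1.11 ± 0.08 or 2.16-fold (limma adjusted p = 3.33e-08). Ephb4, the venous endothelial receptor of ephrin-B2, was the only one called lower, with 9.15, 9.13 and 9.27 in ASP against 9.7, 9.77 and 9.69 in CON. Its log2 difference was -0.54 ± 0.06 (adjusted p = 3.87e-06). Both genes were separated between the pools on every array, in opposite directions.

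**Figure D2:**
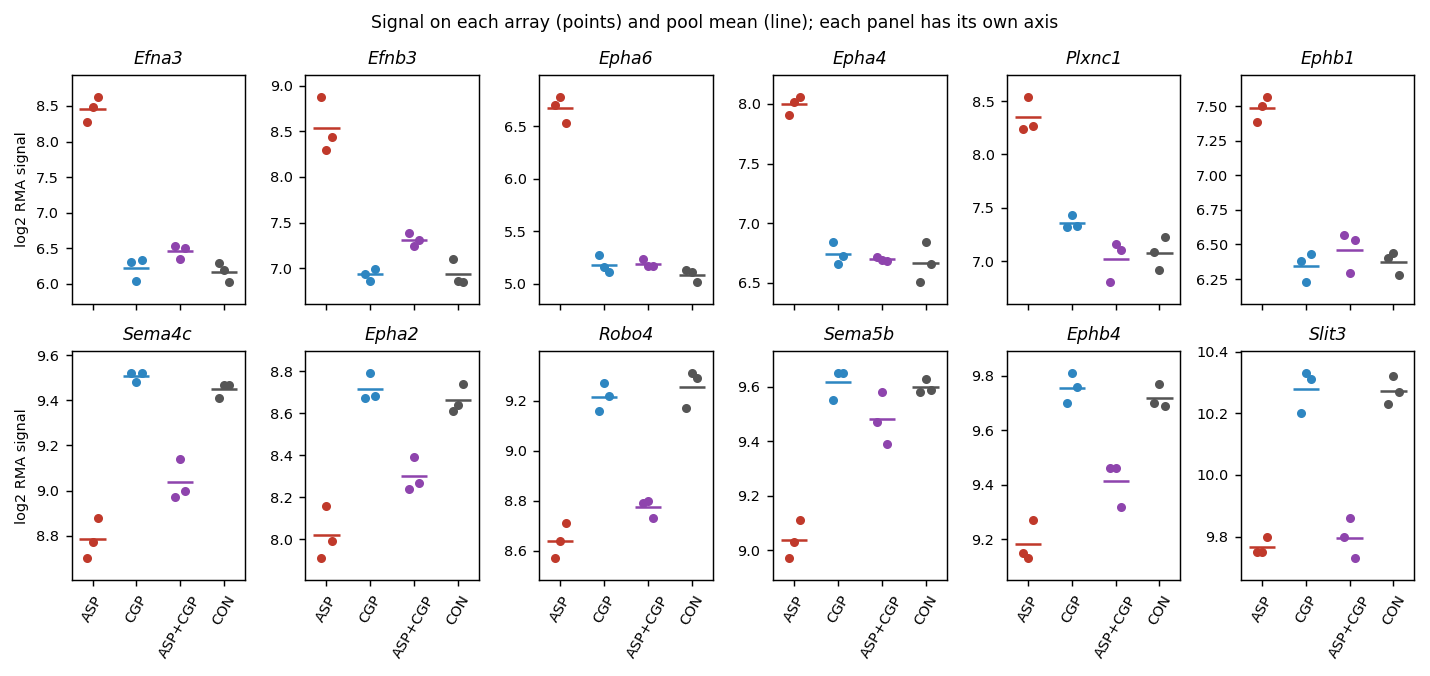
Log2 RMA signal (y axis, a separate scale in each panel) on the 3 arrays of each pool, with the pool mean as a line, for the 6 guidance genes highest and the 6 lowest by difference in ASP against CON. In the upper row the ASP arrays stand alone above the other pools; in the lower row the ASP arrays lie lowest or share the low position with ASP+CGP.

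Promoter sequences are shown for Efna3 and Epha4, a ligand and a receptor that rose in ASP, and for Ephb4 and Robo4, endothelial receptors that fell, and these genes were chosen after their values were seen. RefSeq entries of build GRCm38.p6 were found for 59 of the 69 genes, among them 13 of the 17 genes higher in ASP and all 8 lower ones. The 250 bases before the start are printed 5′ to 3′ in the direction of transcription, and capitals mark the GC box GGGCGG, the letters bound by Sp-family factors, on either strand. The first Efna3 start is at chr3:89322940-89323189 (minus strand), the second at chr3:89321769-89322018 (minus), Epha4 at chr1:77515089-77515338 (minus), Ephb4 at chr5:137349859-137350108 (plus) and Robo4 at chr9:37401722-37401971 (plus).
Efna3, first start: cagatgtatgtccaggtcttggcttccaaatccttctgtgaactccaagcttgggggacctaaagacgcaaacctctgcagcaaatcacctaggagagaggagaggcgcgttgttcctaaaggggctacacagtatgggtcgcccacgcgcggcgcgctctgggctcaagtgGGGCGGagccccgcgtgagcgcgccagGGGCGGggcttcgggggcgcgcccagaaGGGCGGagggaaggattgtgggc
Efna3, second start: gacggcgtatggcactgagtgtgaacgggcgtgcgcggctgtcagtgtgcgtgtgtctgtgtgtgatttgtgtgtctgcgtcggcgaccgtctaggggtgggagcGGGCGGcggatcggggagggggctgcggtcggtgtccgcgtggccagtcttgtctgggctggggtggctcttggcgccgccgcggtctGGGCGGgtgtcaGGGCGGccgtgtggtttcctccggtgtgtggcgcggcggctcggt
Epha4: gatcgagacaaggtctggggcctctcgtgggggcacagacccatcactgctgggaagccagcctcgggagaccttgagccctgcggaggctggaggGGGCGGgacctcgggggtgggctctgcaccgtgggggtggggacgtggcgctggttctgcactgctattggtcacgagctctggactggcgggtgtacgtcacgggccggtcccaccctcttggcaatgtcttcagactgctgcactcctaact
Ephb4: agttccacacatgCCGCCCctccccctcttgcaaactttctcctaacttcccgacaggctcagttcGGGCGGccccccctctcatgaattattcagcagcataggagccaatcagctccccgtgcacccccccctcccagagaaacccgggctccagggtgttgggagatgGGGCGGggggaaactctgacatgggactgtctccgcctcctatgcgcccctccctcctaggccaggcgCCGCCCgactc
Robo4: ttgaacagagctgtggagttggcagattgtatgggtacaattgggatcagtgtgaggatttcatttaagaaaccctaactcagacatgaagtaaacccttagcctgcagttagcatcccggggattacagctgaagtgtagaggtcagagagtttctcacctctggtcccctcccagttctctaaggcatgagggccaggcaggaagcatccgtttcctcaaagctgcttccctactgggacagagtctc

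Each Efna3 start held 3 GC boxes, Epha4 held 1, Ephb4 held 4 and Robo4 held none. The shares that follow count promoters, and a gene with several starts counts once for each (75 promoters of 59 guidance genes, 23 of 13 higher genes and 10 of 8 lower genes). Over all listed promoters of the genome 32.7% held at least 1, over those of the guidance genes 74.7%, over those of genes higher in ASP 56.5% (13 of 23 promoters) and over those of genes lower in ASP 80% (8 of 10). The median share of G and C bases in these sets was 52.4%, 64.4%, 59.2% and 64.6%. Its part in the GC box shares was not tested. A further 4 motifs were searched on both strands. The ETS core CCGGAAG, the binding letters of ETS factors, was in 6.91% of all promoters, 4% of guidance gene promoters and none of the promoters found for called genes. The left side of the RE1 element, TTCAGCACC, read by the neuronal repressor REST, was in 0.301% of all promoters and in none of the guidance genes. The right side, GGACAG, was in 18.7% of all promoters, 25.3% of guidance gene promoters, 39.1% of those of higher genes and 30% of those of lower genes. The E-box CANNTG was in 66.2%, 46.7%, 56.5% and 30% of the same sets. Motifs were counted separately and could share bases, and a match describes the letters of the window and no more.

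Semaphorins repel or attract axons through plexins, with neuropilins as co-receptors of the secreted class 3. None of the 5 tested class 3 genes was called in ASP against CON, while 3 of 6 class 4 and 3 of 4 class 6 genes, which sit in the membrane, were called higher. Sema6d, a ligand of plexin-A1 and plexin-A4, was the highest of them, with 9.29, 9.41 and 9.41 in ASP against 8.45, 8.58 and 8.62 in CON, a difference of 0.82 ± 0.06 or 1.76-fold (limma adjusted p = 6.47e-08). Sema4f, Sema6b, Sema4d, Sema6a and Sema4a rose by 0.77, 0.68, 0.63, 0.6 and 0.52. The median difference was 0.64 over the class 6 and 0.42 over the class 4 genes.

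The largest fall in ASP belonged to another class 4 gene, Sema4c, a ligand of plexin-B2. It measured 8.7, 8.77 and 8.88 in ASP against 9.41, 9.47 and 9.47 in CON, a log2 difference of -0.66 ± 0.06 (limma adjusted p = 5.28e-07). Sema5b, a transmembrane repellent of retinal axons, fell as well, with 8.97, 9.03 and 9.11 in ASP against 9.58, 9.63 and 9.59 in CON (difference -0.56 ± 0.06, adjusted p = 3.16e-06). ASP arrays were below CON arrays without overlap for both. Of the families with no called gene, Sema3f, a secreted ligand of neuropilin-2, read 9.39, 9.4 and 9.44 in ASP against 9.82, 9.82 and 9.96 in CON, a difference of -0.46, and the lipid-anchored Sema7a read 9.84, 9.89 and 9.87 in ASP against 9.73, 9.77 and 9.79 in CON, a difference of 0.11.

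The plexins, receptors of the semaphorins, went both ways. Plxnc1, the receptor of Sema7a, was 8.24, 8.54 and 8.27 in ASP against 7.09, 6.92 and 7.23 in CON, a difference of 1.27 ± 0.1 or 2.41-fold (limma adjusted p = 1.03e-07). Plxnb3, a receptor of Sema5a, was 7.67, 7.44 and 7.64 in ASP against 6.78, 6.5 and 6.52 in CON, a difference of 0.98 ± 0.09 or 1.98-fold (adjusted p = 3.07e-07). Plxnd1, the endothelial receptor of Sema3e, was the plexin called lower, with 10.39, 10.48 and 10.58 in ASP against 10.91, 11 and 11.02 in CON (difference -0.49 ± 0.07, adjusted p = 2.58e-05). For all 3 plexins the ASP and CON arrays were separate. The ligands named here for these plexins were called in neither direction: Sema7a differed by 0.11, Sema5a by 0.05 and Sema3e by 0.39. Plxna4 and Plxna2 had differences of 0.47 and 0.37 that stayed under 1.4-fold. Of the neuropilins, Nrp1, which also binds vascular endothelial growth factor, read 9.08, 9.2 and 9.09 in ASP against 9.49, 9.53 and 9.44 in CON, a difference of -0.36 that was not called.

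Slits are secreted repellents that act through Robo receptors. Slit3 fell, with 9.75, 9.75 and 9.8 in ASP against 10.23, 10.32 and 10.27 in CON, a difference of -0.51 ± 0.06 (limma adjusted p = 3.89e-06), while Slit1 and Slit2 differed by 0.04 and 0.07. The receptors divided. Robo2, an axonal receptor, was 8.01, 7.89 and 7.86 in ASP against 7.1, 7.16 and 7.16 in CON (difference 0.77 ± 0.06, 1.71-fold, adjusted p = 1.29e-07). Robo4, the endothelial member, was 8.57, 8.64 and 8.71 in ASP against 9.17, 9.31 and 9.29 in CON (difference -0.62 ± 0.06, adjusted p = 7.58e-07). No ASP array reached the range of the CON arrays for either receptor.

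Netrins attract axons through DCC and repel them through UNC5 receptors. No netrin was called, and Ntn1 read 8.24, 8.33 and 8.39 in ASP against 8.46, 8.46 and 8.54 in CON, a difference of -0.16. Their receptor Dcc was higher, with 8.03, 8.08 and 8.18 in ASP against 7.16, 7.33 and 7.46 in CON, a difference of 0.78 ± 0.09 or 1.72-fold (limma adjusted p = 2.29e-06). Unc5d rose by 0.67, and Unc5a, Unc5b and Unc5c differed by 0.18, -0.01 and 0.45 without a call.

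The lipid-anchored netrin-G1, Ntng1, which works at synapses, gave different results at its 2 single-gene probe sets. The brighter set read 8.07, 7.84 and 7.91 in ASP against 7.67, 7.66 and 7.66 in CON, a difference of 0.28 that was not called. The other set averaged 9.1 in ASP, 6.93 in CGP, 6.74 in ASP+CGP and 6.94 in CON, a difference in ASP of 2.16 ± 0.08 (limma adjusted p = 1.16e-09 over the 2469 other probe sets fitted apart). Further members had a second set: it gave 0.93 for Sema4d and 0.99 for Unc5d, both called as at the first set, 0.25 for Epha10, not called at either, and 0.68 for Sema6b, whose 2 sets had the same group means. Ntng2 shares its probe set with another gene, so it was not counted.

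**Figure D3:**
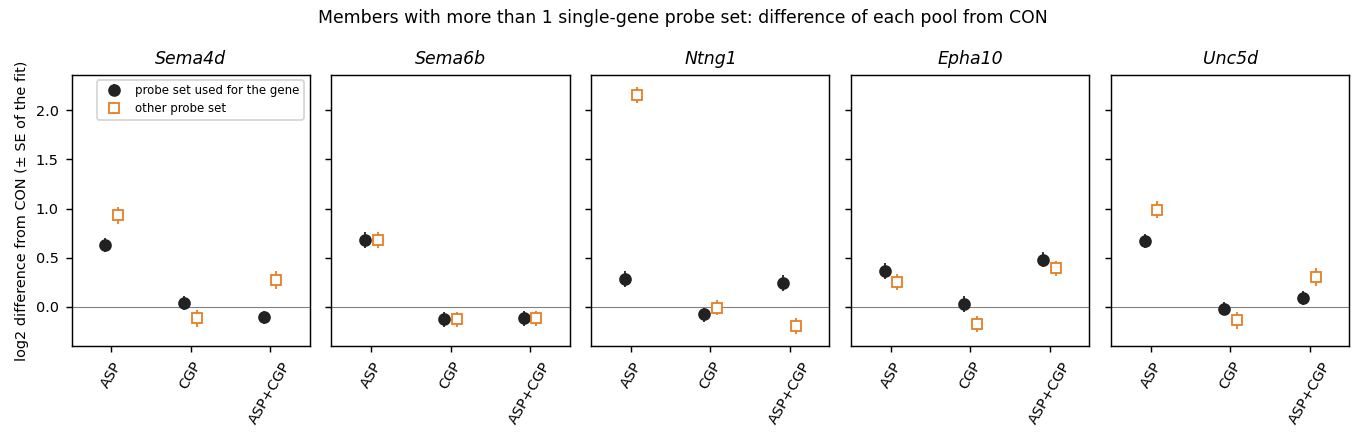
Log2 difference from CON (y axis, ± SE of the fit) in ASP, CGP and ASP+CGP at the probe set used for the gene (filled circles) and at the other single-gene probe set (open squares). At Ntng1 the sets part in ASP, with 0.28 at the set used and 2.16 at the other.

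Signal level separated the directions. Of the 47 guidance genes with a CON mean below 9, 17 were higher and 2 lower in ASP against CON. Of the 21 with a CON mean of 9 or more, none was higher and 6 were lower (limma, adjusted p under 0.05 and 1.4-fold in both groups). Over all genes tested the percentage called higher was 13 at a CON mean between 6 and 7 and 4.9 between 9 and 10, and the percentage called lower was 2.14 and 13. The falls also depended on the scaling of the arrays. Under cyclic loess 1 guidance gene, Sema4c, was still lower in ASP and 22 were higher, and with the trend of each array against signal removed, chosen after seeing the data, 2 were lower and 18 higher. All 25 called genes kept their sign under these scalings and under median centring. Among the smaller falls, Slit3 lost its call without CON replicate 2 (-0.48). Efna1 lost it without CON replicate 3 (-0.45), without ASP replicate 3 (-0.47) and under median centring (-0.48), and Plxnd1 without CON replicates 2 (-0.48) or 3 (-0.47), without ASP replicate 1 (-0.44) and under median centring (-0.47). The median of all genes in ASP against CON was -0.1 as deposited and 0.01 under cyclic loess.

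**Figure D4:**
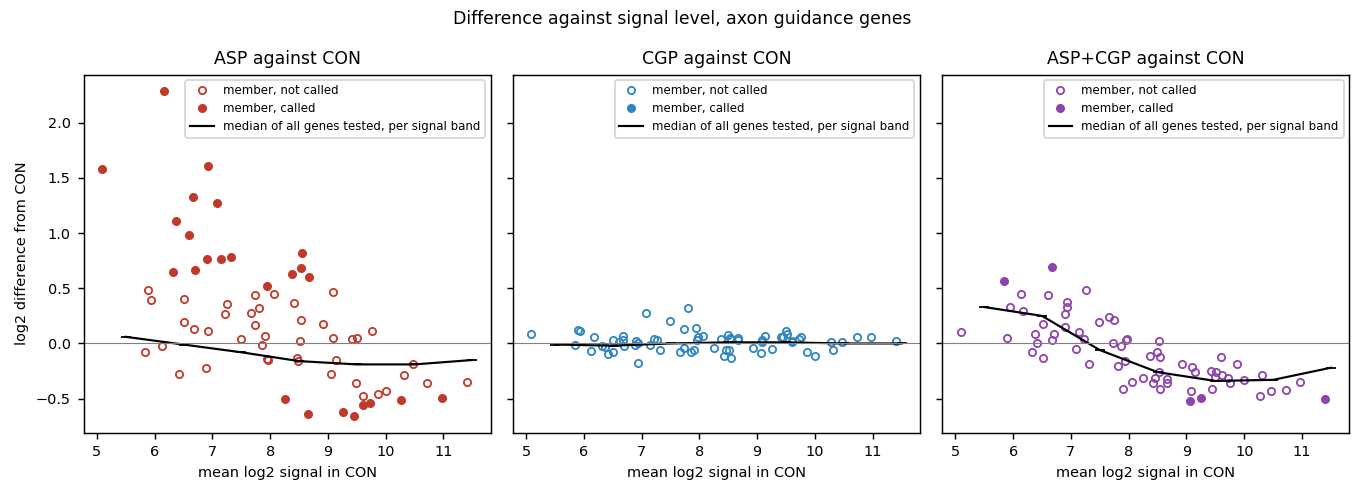
Log2 difference from CON (y axis) against mean log2 signal in CON (x axis) for the tested guidance genes in ASP, CGP and ASP+CGP, filled where called, with the median of all genes tested in each signal band as a line. In ASP the called genes below a signal of 9 are mostly high and those above it are all low, while in ASP+CGP the guidance genes follow the line.

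Markers of central nervous tissue rose in the same pool. All 14 neuron markers, all 11 tested oligodendrocyte markers and 9 of 10 astrocyte markers were higher in ASP against CON, with median differences of 2.01, 2.08 and 2.04. The mean signal of the neuron list was 10.32 to 10.38 in ASP, 7.94 to 7.95 in CGP, 7.94 to 8.02 in ASP+CGP and 7.87 to 7.95 in CON, that of the oligodendrocyte list 9.13 to 9.31 in ASP, 6.77 to 6.87 in CGP, 6.96 to 7.09 in ASP+CGP and 6.79 to 6.81 in CON, and that of the astrocyte list 9.36 to 9.5 in ASP, 7.68 to 7.79 in CGP, 7.54 to 7.6 in ASP+CGP and 7.58 to 7.65 in CON. Camk2a, a kinase of forebrain neurons, was at 10.67 in ASP and 6.37 in CON, and Mobp, a myelin protein of oligodendrocytes, was at 10.22 in ASP and 6.07 in CON. Of the 5 tested Schwann cell markers, the glia of peripheral nerve, 1 was higher (Sox10, which oligodendrocytes share). Chromaffin cell markers were lower for 3 of 11 and higher for none. The part of the nervous tissue markers in the rise of the guidance genes was not tested.

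Markers of several other cell types were lower in the same pool. In ASP against CON 6 of 10 endothelial markers were lower and none higher, with a median difference of -0.5, and their mean signal was 9.44 to 9.51 in ASP against 9.9 to 9.94 in CON. Hepatocyte markers were lower for 7 of 9 in ASP, with a median of -1.12, adrenal cortex markers for 3 of 10 (median -0.23) and fibroblast and smooth muscle markers for 2 of 9 (median -0.3), with none higher in these 3 lists. Of the 9 guidance genes known from blood vessels, 4 were lower in ASP and none higher, with a median of -0.36. Of the 20 tested genes known mainly from the nervous system, 9 were higher and 1 lower, with a median of 0.43. Both lists were chosen with earlier results of these data known, and the part of these markers in the falls was not tested.

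Other genes of the pathway rose beside the ligands and receptors. Among 22 tested further cues, co-receptors and adhesion partners, 10 were higher and 1 lower in ASP against CON, with a median of 0.42. Cntn1, a contactin of axons and oligodendrocyte precursors, was 3.44 higher on the log2 scale, Dscam, a further netrin receptor, 2.89, Cntn2, an axonal adhesion protein, 2.22 and Lingo1, part of the Nogo receptor complex, 2.21. Among 32 tested intracellular effectors, 12 were higher and 1 lower, with a median of 0.26. Chn1, the chimaerin that acts downstream of Epha4, was 2.21 higher, Dpysl5, of the collapsin response mediators, 1.77, and the Slit-Robo GTPase-activating proteins Srgap3 and Srgap1 1.32 and 1.23. The genes that fell were Boc, a co-receptor of sonic hedgehog, and Dock1, an activator of Rac, both named after their values were seen.

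In CGP adrenals the guidance genes lay near their CON levels. No guidance gene was called higher in CGP, beside a background of 1.62% of genes tested, and none was called lower, beside 0.0189%. At an unadjusted p under 0.05 in limma there were 3 of 68 guidance genes, beside 1550 of all 15900 genes tested. The count of calls was also 0 with trended and robust moderation. Sema4g, a class 4 semaphorin, came nearest, with 8.18, 8.18 and 8.02 in CGP against 7.75, 7.86 and 7.81 in CON, and although these arrays did not overlap the difference of 0.32 (adjusted p = 0.00782) was under 1.4-fold. CGP and CON arrays were apart for 10 of 68 guidance genes, beside 16.5% of all genes tested.

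In ASP+CGP adrenals 2 guidance genes were higher and 3 lower than in CON adrenals. The background was 6.09% of genes tested called higher and 8.32% called lower. Efna4, an ephrin-A ligand, had 7.47, 7.27 and 7.38 in ASP+CGP against 6.69, 6.66 and 6.69 in CON, a difference of 0.69 ± 0.08 or 1.62-fold (limma adjusted p = 1.12e-05). Epha1, an Eph receptor of epithelia, had 6.47, 6.31 and 6.45 in ASP+CGP against 5.88, 5.84 and 5.82 in CON, at least 1.33-fold with CON at the floor. For neither Efna4 nor Epha1 did the ASP+CGP and CON arrays overlap, as for 51 of the 68 guidance genes and 75.3% of all genes tested. Epha1 lost its call under cyclic loess (0.34) and with the signal trend removed (0.28).

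The 3 lower genes lay among the brighter members. Efnb2, the arterial ligand of Ephb4, was 8.55, 8.61 and 8.47 in ASP+CGP against 9.05, 9.02 and 9.12 in CON (difference -0.52), Robo1 was 10.95, 11 and 10.76 in ASP+CGP against 11.4, 11.4 and 11.42 in CON (difference -0.5), and Robo4 was 8.79, 8.8 and 8.73 in ASP+CGP against 9.17, 9.31 and 9.29 in CON (difference -0.49). All were separate from CON, and Robo4 was the gene also lower in ASP. None of the 3 kept its call under median centring, cyclic loess or removal of the signal trend, nor without ASP+CGP replicate 3. Robo4 also lost it without CON replicates 2 (-0.46) or 3 (-0.47). All 21 guidance genes with a CON mean of 9 or more had negative differences here, and the median of all genes tested was -0.34 at a CON mean between 9 and 10 and 0.25 between 6 and 7. The median over the guidance genes was -0.12, beside -0.17 over all genes tested. Endothelial markers were lower for 2 of 10 in this pool, and their part in these values was not tested.

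The guidance genes higher with aspartame alone were lower in the pool that had both agents. In ASP+CGP against ASP 22 guidance genes were lower, beside 13.3% of all genes tested, and 2 were higher, beside 6.55%. The 22 held all 17 genes that were higher in ASP against CON, and 5 more, Plxna4, Unc5c, Epha7, Plxna2 and Sema4g. Both comparisons use the same ASP arrays. Efna3 read 6.53, 6.35 and 6.51 in ASP+CGP against 8.27, 8.49 and 8.63 in ASP, a difference of -2 ± 0.1 (limma adjusted p = 3.42e-10). Epha4 read 6.72, 6.69 and 6.68 in ASP+CGP, Plxnc1 6.81, 7.16 and 7.11, and Sema6d 8.16, 8.2 and 8.06, each below every ASP array, with differences of -1.3, -1.32 and -1.23. ASP+CGP and ASP arrays did not overlap for 49 of the 68 guidance genes, beside 65.4% of all genes tested. Efnb3 read 7.39, 7.24 and 7.31 in ASP+CGP, a difference from ASP of -1.23, and Epha6 read 5.24, 5.17 and 5.17, a difference of -1.48. These Epha6 values were under the floor of 6, and the gene passed the filter only through ASP.

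None of the 17 was called in ASP+CGP against CON, where the highest difference was 0.44 for Plxnb3 and the lowest -0.41 for Sema6d. Efna3 differed by 0.29 and Efnb3 by 0.38, while Robo2 differed by 0.1 with overlapping arrays. Efna3 and Efnb3 were separate from CON, as were 75.3% of all genes tested. Their CON means were 6.17 and 6.93, and the median of all genes tested with a CON mean between 6 and 7 was 0.25. Markers of nervous tissue were also lower in this pool than in ASP: in ASP+CGP against ASP all 14 neuron, all 11 oligodendrocyte and 9 of 10 astrocyte markers were lower, with medians of -2.11, -1.79 and -1.88. In ASP+CGP against CON 3 of 14 neuron markers were higher (Nefl by 0.74, Tubb3 by 0.62 and Gap43 by 0.5) and 1 of 11 oligodendrocyte markers (Fa2h by 0.73), and 1 of 10 astrocyte markers was lower (Aldh1l1, -0.68). The medians of these lists were 0.02, 0.2 and 0.03. Without the fold minimum, 5 neuron markers were higher and 5 lower at an adjusted p under 0.05 in limma. Efna4 and Epha1 were the 2 guidance genes higher in ASP+CGP than in ASP, by 0.57 and 0.64, and both lost their calls under cyclic loess (0.4 and 0.39). The Epha1 mean in ASP, 5.77, was under the floor of 6. Of the 8 genes lower in ASP than in CON, none was called higher in ASP+CGP against ASP.

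Set against CGP, the ASP+CGP pool had 4 guidance genes higher, beside 8.57% of genes tested, and 2 lower, beside 11%. The higher genes were Efna4 (0.67), Epha1 (0.58), Unc5cl (0.52) and Epha8 (0.51). The Epha1 mean in CGP, 5.83, was under the floor of 6. Epha8, an EphA receptor of the midbrain, read 7.27, 7.2 and 7.3 in ASP+CGP against 6.7, 6.57 and 6.98 in CGP. Unc5cl read 6.67, 6.53 and 6.55 in ASP+CGP against 6.09, 5.9 and 6.2 in CGP. Without Unc50 and Unc5cl the higher count was 3. The lower genes were Sema4g, with 7.61, 7.58 and 7.62 in ASP+CGP against 8.18, 8.18 and 8.02 in CGP (-0.53), and Robo1 (-0.52). None of the 6 passed with the signal trend removed, and under cyclic loess 1 of them, Efna4, passed. Epha8 lost its call without CGP replicates 1 (0.48) or 2 (0.42), Unc5cl without CGP replicate 2 (0.44) or ASP+CGP replicate 1 (0.48), and Robo1 without ASP+CGP replicate 3 (-0.45).

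The interaction asked whether the difference between arrays with and without aspartame was the same with and without CGP 39551. It was taken as ASP+CGP minus CGP less ASP minus CON. It was negative for 25 guidance genes, beside 15.5% of genes tested, and positive for 3, beside 9.02%. The 25 included the 17 genes higher in ASP against CON, but the ASP and CON arrays enter both comparisons, so this overlap is no separate evidence. At the probe sets used for the genes, the term was most negative for Efna3 at -2.06 ± 0.14 (limma adjusted p = 2.55e-08) and Plxnc1 at -1.6 ± 0.15 (adjusted p = 5.75e-07). Epha1, Efna4 and Unc5cl were the positive ones, at 0.66, 0.54 and 0.53. Epha1 passed the filter only through ASP+CGP, and Epha6, among the 25, only through ASP. The terms of Epha1 and Epha6 therefore hold group means under the floor of 6. Without Unc50 and Unc5cl the positive count was 2. Under cyclic loess Epha1, Efna4 and Unc5cl lost their calls (0.37, 0.34 and 0.27). Unc5cl lost it also with the signal trend removed (0.45), Efna4 lost it without CGP replicate 1 (0.46) and Unc5cl without CGP replicate 2 (0.45) or ASP replicate 2 (0.47). All 4 netrins and both neuropilins were called in none of the 6 contrasts.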

How the data were processed

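RNA of the 4 groups was hybridised as 1 pool per group on 3 arrays each. The authors deposited log2 signals, made per the labels with Partek and RMA (background correction, quantile normalisation and median polish), with versions not given in the sources used here. The table held 26533 probe sets, all reaching 6 on at least 1 array; 17710 listed 1 gene, 1077 several and 7746 none. Each gene was read at its brightest single-gene probe set, the 344 genes whose 4 group means all lay below 6 were dropped, and limma 3.58.1 in R 4.3.3 was fitted to all 12 arrays with 1 mean per group. The members, lists and tests were chosen with earlier results of these data known. Values on every array are given for the 10 highest and 10 lowest called members in ASP against CON, the 6 highest and lowest in other contrasts, and the brightest member of a family with none; the 4 called genes with the largest differences are named from each pathway list, and the 1 gene of each that fell was added after its value was seen. The procedure was tested on simulated data. Alternatives changed the filter, scaling, moderation, probe set, array weights, replicate block and arrays used. The number of arrays limits the precision, and differences carry the standard error of the fit.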

Additional observations from a re-analysis of the deposited data

Results flagged for a closer look

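The difference between arrays with and without aspartame was not the same with and without CGP 39551 for 28 guidance genes, by the interaction term in limma. Among all genes tested this term was called negative for 15.5% and positive for 9.02%. It was negative for Efna3 (-2.06), Plxnc1 (-1.6), Epha6 (-1.57), Epha4 (-1.37), Sema6d (-1.27), Efnb3 (-1.22), Ephb1 (-1), Sema6a (-0.95), Dcc (-0.91), Unc5c (-0.87), Sema4g (-0.84), Sema4a (-0.82), Sema4d (-0.79), Epha5 and Plxna4 (-0.7 each), Sema6b (-0.68), Robo2 (-0.66), Plxna2 (-0.62), Unc5d (-0.57), Plxnb3 and Sema3c (-0.55 each), Efna5 and Sema7a (-0.53 each), Sema4f (-0.52) and Sema5a (-0.49). It was positive for Epha1 (0.66), Efna4 (0.54) and Unc5cl (0.53). Of these, Unc5c, Sema4g, Plxna4, Plxna2, Sema3c, Efna5, Sema7a, Sema5a, Epha1, Efna4 and Unc5cl were not called in ASP against CON.

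Probe sets that the main comparisons left out also carried differences. In ASP against CON the other sets gave 2.16 for Ntng1, 0.99 for Unc5d, 0.93 for Sema4d and 0.68 for Sema6b, and -0.56 for the set that lists Ntng2 together with 6530402F18Rik. In ASP+CGP against ASP they gave -2.36 for Ntng1, -0.8 for Sema6b, -0.69 for Unc5d and -0.66 for Sema4d. The other Epha10 set was called higher in ASP+CGP against CGP, at 0.57. For the interaction the other sets called gave -2.35 for Ntng1, -0.68 for Sema6b, -0.55 for Unc5d and -0.54 for Sema4d. Groups of 3 arrays were too small for a search for single arrays far from their group.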

How the results depend on the processing

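In ASP against CON the higher count stayed between 15 and 22 under 11 alternatives, 9 of which were planned and 2 chosen after seeing the data (removal of the signal trend, and the fit without the ASP+CGP arrays), and between 17 and 20 when each array was left out. The lower count was 1 under cyclic loess and 2 with the signal trend removed, and 6 to 9 when each array was left out. In ASP+CGP against CON the higher count was 1 with a floor of 7, 5 under median centring and 1 with the trend removed, and the lower count was 0 under median centring, cyclic loess and removal of the trend; leaving out arrays gave 2 to 4 higher and 0 to 4 lower, the extremes of 4 higher and 0 lower without ASP+CGP replicate 3. In ASP+CGP against ASP the higher count was 1 with a floor of 7, 4 under median centring and 1 under cyclic loess, and the lower count stayed between 19 and 25, or 21 and 26 when each array was left out. In ASP+CGP against CGP the higher count was 2 with a floor of 7, 1 under cyclic loess and 0 with the trend removed, and the lower count was 0 under median centring, cyclic loess and removal of the trend and 5 with array weights; leaving out arrays gave 2 to 5 higher (2 without CGP replicate 2) and 1 to 7 lower (1 without ASP+CGP replicate 3, 7 without replicate 2). The positive interaction count was 1 with a floor of 7, and the negative count stayed between 21 and 26. The cause was not tested. The median over guidance genes in ASP+CGP against CON was -0.12 as deposited and 0.01 under cyclic loess. Among all genes called in ASP+CGP against CON the higher share was 42.3% as deposited and 70.1% under median centring, and in ASP against CON 54.7% as deposited and 80.1% under cyclic loess. With the replicate number as a replicate block the counts in ASP against CON were 17 and 8, and no count of calls changed; deviations of arrays with the same number correlated at -0.15 to 0.38 (over 0.1 in 8 of 18 pairs) and of arrays with different numbers at -0.39 to 0.28. Among ASP, CGP and ASP+CGP arrays the correlations lay at 0 to 0.38 for the same number (median 0.15) and at -0.39 to 0.28 for different numbers (median -0.16). In pairs with CON they lay at -0.15 to 0.19 for the same number (median 0.01) and at -0.29 to 0.28 for different numbers (median -0.04). Of 12 arrays, 5 correlated best with their own number. Every pair would have had to pass 0.1 to be treated as pairing, so the numbers were treated as names only. With 3 arrays per group this rule cannot decide whether equal numbers mark shared handling, which was not tested. No called guidance gene named in the text changed sign under any of these settings. With 1 pool per group, differences between mice are not measured, and genes near the floor of 6 have compressed folds.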

Other observations

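Hepatocyte markers lay at a different mean signal in each pool, with no overlap between the arrays. Their mean signal was 10.23 to 10.25 in ASP, 11.83 to 11.87 in CGP, 9.76 to 9.88 in ASP+CGP and 11.21 to 11.27 in CON.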
